A study of Mus musculus with 4 samples.

Results

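Integrin and laminin subunit genes were followed in the mouse line C3H10T1/2, whose cells are mesenchymal stem cells, after exposure to bone morphogenetic protein 3 (BMP3). BMP3 is a secreted ligand of the TGF-beta superfamily. The members were all genes on the array whose symbol names an integrin alpha or beta subunit or a laminin alpha, beta or gamma chain, without the genes of integrin-binding proteins. They came to 36 of the 18193 genes with a probe set of their own, 26 of them integrin genes and 10 laminin genes. One of the 26, Itgbl1, matches by its symbol and encodes an integrin beta-like protein with no membrane-spanning segment rather than a receptor subunit. Where a gene had several probe sets, the brightest by mean over the 4 arrays stood for it. Itga11 and Itgad were not analysed here.

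The BMP3 group received recombinant human BMP3 at 100 ng/ml over 6 hours, and the control group was left without it. Each group had 2 arrays of total RNA, which the labels call biological replicates. They do not say whether a replicate number marks a shared day or culture batch. Both groups were of the same cell line, and a level is an average over the cells of a culture, so fewer cells with a transcript and less transcript per cell cannot be told apart.

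Integrins are receptors at the cell surface, each made of an alpha and a beta subunit that span the membrane and together decide which matrix protein is bound. Laminins are secreted trimers of an alpha, a beta and a gamma chain that polymerise into the basement membrane, the sheet of matrix on which cells sit. Several integrins bind laminin directly, so both families hold ends of the same attachment, and mesenchymal cells are known to make matrix of this kind and to attach to it.

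Values are log2 intensities as deposited, on which an increase of 1 is a doubling, and differences are BMP3 minus control on the same scale. The BMP3 arrays had median log2 values of 3.36 and 3.31 and the control arrays 3.35 and 3.40. A mean of 6 or more over the 4 arrays, reached by 9185 of the 18193 genes, was taken as bright. All 11 measured mesenchymal markers were bright, while all 9 leukocyte, all 7 endothelial and all 5 skeletal muscle markers were dim. So were 7 of 8 epithelial, 4 of 5 platelet and 1 of 2 glial markers. The bright exceptions were Epcam (mean 9.51), Gp1bb (7.51) and the glial marker S100b (8.36). Epithelial Krt5 at 5.92 and glial Sox10 at 5.79 lay just under the limit. Control sequences also differed between the groups. The poly-A spike-ins Dap, Phe, Lys and Thr averaged 8.99, 6.54, 6.24 and 5.43 in BMP3 arrays, against 10.12, 7.55, 6.97 and 5.91 in control arrays, and 18S ribosomal RNA averaged 9.45 in BMP3 arrays and 10.96 in control arrays. Control replicate 1 was the highest array for each of these. In control replicates 1 and 2, Lys read 7.45 and 6.48 and 18S 11.41 and 10.50. In BMP3 replicates 1 and 2, Lys read 6.11 and 6.37 and 18S 8.99 and 9.90. The spike-ins added at hybridization averaged 11.55 in BMP3 arrays and 11.59 in control arrays. The part of these differences in the results below was not tested.

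The comparison asked which of these genes differ after 6 hours of BMP3. Itga6, the alpha subunit of a laminin receptor, had higher values in BMP3 arrays by a log2 difference of 1.29, and Lama4, the laminin alpha chain that was bright in these cells, had lower values by a difference of -1.13. The common beta partner of Itga6, Itgb1, differed by 0.05, and the other bright laminin chains, Lamb1, Lamb2 and Lamc1, by -0.39, -0.31 and -0.29. No member passed limma's adjusted p threshold of 0.05 (0 of 36, smallest adjusted p = 0.344), and neither did any of the 45037 probe sets tested (0.00%). At an unadjusted p under 0.05 and a difference of 1.5-fold or more, 1 of the 36 members was higher (Itga6) and 1 was lower (Lama4). Of all genes 1.18% were higher and 1.65% lower by that rule, and of bright genes 2.00% and 2.83%, so these are single genes and not a share that sets the families apart.

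Only 14 of the 36 members were bright, 10 integrin and 4 laminin genes. Of these 14, 8 had a difference above 0 and 6 below, against 53.3% and 46.7% of bright genes. Their median was 0.04, against 0.02 over all bright genes. In 1 of the 14 both BMP3 values lay above both control values and in 4 both lay below, against 26.1% and 21.7% of bright genes. With 2 arrays in each group an exact permutation test of a single gene cannot give a two-sided p under 0.333, so the p-values here come from limma, which shares the spread across probe sets. They measure the spread between these arrays, which may be partly technical.

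**Figure D1:**
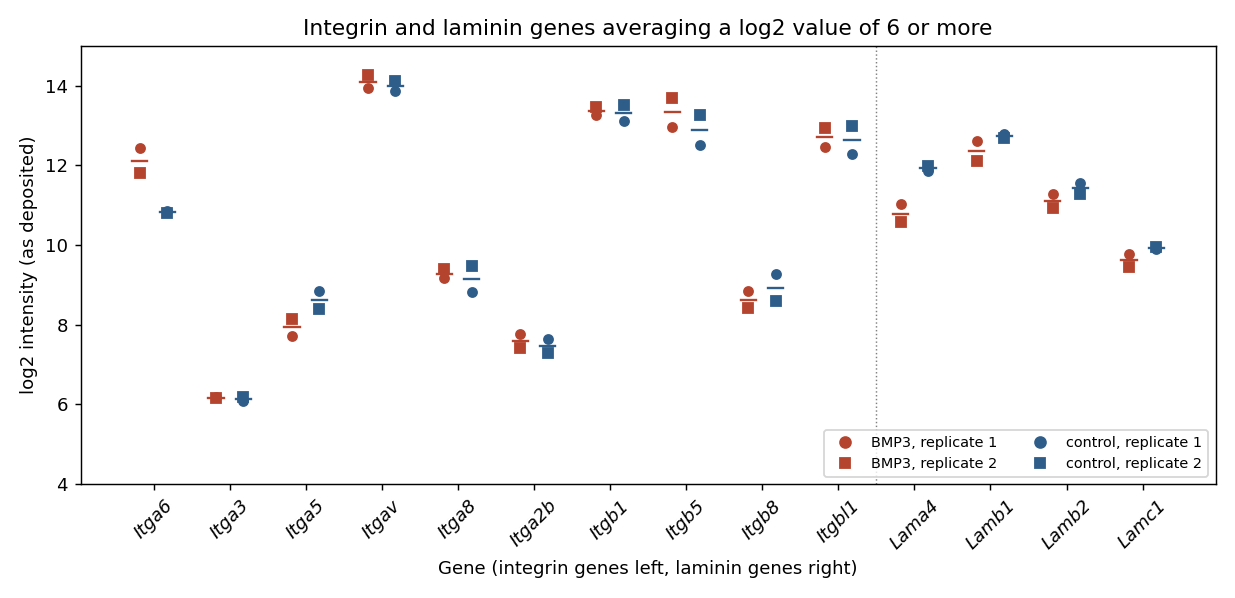
Log2 intensity on each array (vertical axis) of the 14 integrin and laminin genes averaging a log2 value of 6 or more (horizontal axis), with BMP3 left of control for each gene, 1 point per array and a line at the mean of the 2 arrays. Itga6 stands higher in both BMP3 arrays (12.44 and 11.80, against 10.86 and 10.80 in control) and Lama4 lower (11.02 and 10.57, against 11.86 and 11.99 in control), while the points of most other integrin genes overlap.

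Among the laminin-binding alpha subunits, Itga6 is known to join Itgb1 or Itgb4 and to serve as a main laminin receptor of stem and epithelial cells. Its brightest probe set read 12.44 and 11.80 in BMP3 replicates 1 and 2, against 10.86 and 10.80 in control replicates 1 and 2. Both BMP3 arrays stood above both control arrays, and the BMP3 replicates lay further apart than the control replicates. The difference was 1.29 with a standard error of 0.26 (95% interval 0.49 to 2.09, a fold of 2.44, limma adjusted p = 0.400, unadjusted p = 0.0134). The second probe set of Itga6 read 9.93 and 9.55 in BMP3 arrays, against 8.07 and 7.94 in control arrays, a difference of 1.74 with a standard error of 0.16. Both probe sets thus ran the same way in every array, although they measure the same RNA and are not independent. Leaving out BMP3 replicate 1 gave 0.97, and leaving out BMP3 replicate 2 gave 1.61. Leaving out control replicate 1 gave 1.32 with an unadjusted p of 0.0632, and leaving out control replicate 2 gave 1.26 with an unadjusted p of 0.0695, both above 0.05.

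Itga6 has a pair of known beta partners, Itgb1 and Itgb4. Itgb1, the beta subunit shared by most matrix-binding integrins, read 13.27 and 13.46 in BMP3 arrays, against 13.12 and 13.51 in control arrays. The groups overlapped, with a difference of 0.05 and a 95% interval from -0.48 to 0.58. Its 3 bright probe sets ran from -0.15 to 0.05. Itgb4, the beta subunit that links laminin to keratin filaments in epithelial cells, was dim at 1.85 and 1.80 in BMP3 arrays and 1.80 and 1.82 in control arrays. These values are under every array's median, and no difference is printed. Itga3, another laminin-binding alpha subunit, lay just above the limit for bright genes at 6.18 and 6.15 in BMP3 arrays and 6.08 and 6.19 in control arrays (difference 0.03 with a standard error of 0.06). Itga7, the laminin-binding subunit typical of muscle, was dim, at 3.71 and 3.65 in BMP3 arrays and 3.69 and 3.63 in control arrays.

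**Figure D2:**
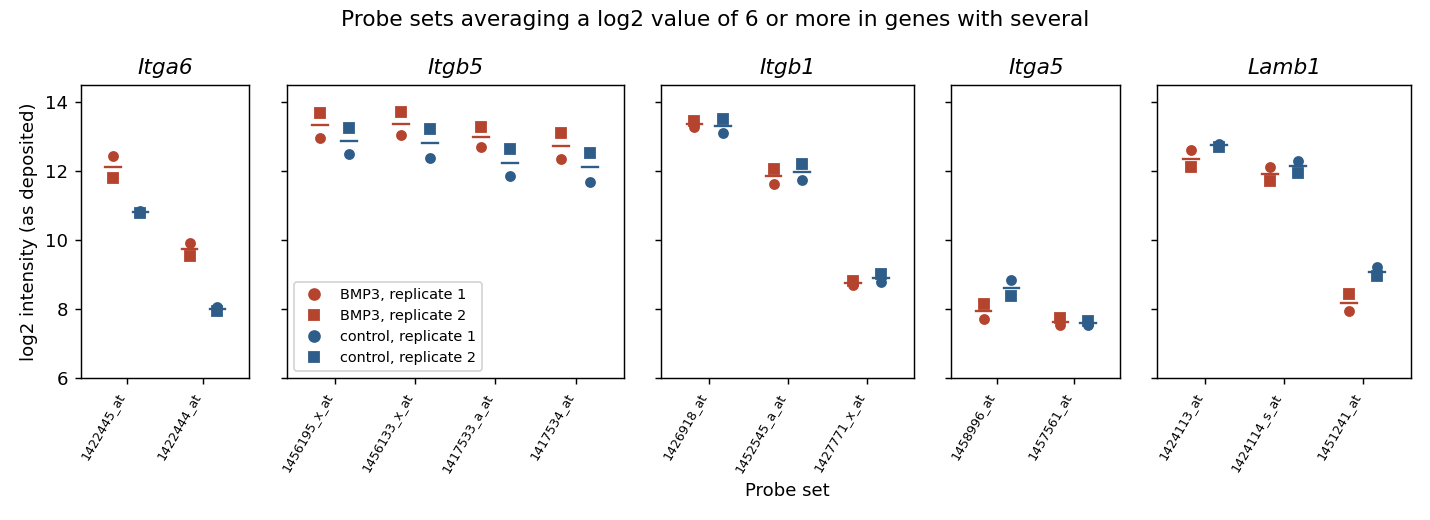
Log2 intensity on each array (vertical axis) of every bright probe set (horizontal axis) in the 5 genes that have more than 1, with BMP3 left of control and a line at the mean of 2 arrays. Both Itga6 probe sets are higher in BMP3 arrays, replicate 2 is the higher in both groups for all 4 Itgb5 probe sets, and the 2 Itga5 probe sets disagree.

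Subunits that recognise the RGD motif of fibronectin and vitronectin were all bright on the alpha side, 4 of 4. Itga5, which with Itgb1 forms the classical fibronectin receptor, read 7.72 and 8.15 in BMP3 arrays, against 8.84 and 8.39 in control arrays. Its groups did not overlap and the BMP3 values were the lower, with a difference of -0.68 and a standard error of 0.25 (limma adjusted p = 0.649, unadjusted p = 0.0652). This rested on 1 probe set. The other bright probe set of Itga5 read 7.53 and 7.75 in BMP3 arrays and 7.55 and 7.66 in control arrays, a difference of 0.03, and a dimmer one had 0.60 with a standard error of 0.48. The direction for Itga5 therefore depends on the probe set taken.

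Itgav, the alpha subunit of vitronectin receptors and of the integrins that release TGF-beta from its latent complex, read 13.94 and 14.27 in BMP3 arrays, against 13.88 and 14.11 in control arrays. The groups overlapped, with a difference of 0.11 and a 95% interval from -0.38 to 0.60. Itga8, which with Itgb1 binds nephronectin, read 9.17 and 9.39 in BMP3 arrays and 8.82 and 9.47 in control arrays. Its groups overlapped as well (difference 0.13, 95% interval -0.72 to 0.98). Itga2b, known as the alpha subunit of the platelet fibrinogen receptor, read 7.76 and 7.41 in BMP3 arrays and 7.64 and 7.30 in control arrays (difference 0.11 with a standard error of 0.20). Its one known beta partner, Itgb3, was dim, at 1.97 and 1.95 in BMP3 arrays and 1.96 and 1.99 in control arrays. Among platelet markers, Pf4, Ppbp, Gp9 and Gp5 stayed between 1.68 and 2.92 on all arrays, while Gp1bb averaged 7.33 in BMP3 arrays and 7.69 in control arrays.

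The beta subunits that pair with Itgav differed in how they were detected. Itgb5, which with Itgav binds vitronectin, read 12.97 and 13.70 in BMP3 arrays, against 12.50 and 13.26 in control arrays. In each group the array of replicate 2 was the higher, by 0.72 in BMP3 and 0.75 in control, more than the group difference of 0.45 (standard error 0.42, limma adjusted p = 0.897). Between arrays of the same replicate number the difference was 0.47 and 0.44, though the labels do not say that the numbers pair the cultures. The groups overlapped for this probe set, whose design can also match related sequences. Its 4 bright probe sets ran from 0.45 to 0.74. For the brightest one the difference was 0.82 when BMP3 replicate 1 was left out and 0.83 when control replicate 2 was, but 0.09 when BMP3 replicate 2 was left out and 0.08 when control replicate 1 was.

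Itgb8, whose pair with Itgav is known for releasing active TGF-beta, read 8.84 and 8.42 in BMP3 arrays, against 9.27 and 8.60 in control arrays. The groups overlapped, with a difference of -0.31 and a 95% interval from -1.28 to 0.67. Itgb6, the epithelial subunit with the same known activity, was dim at 2.33 and 2.30 in BMP3 arrays and 2.32 and 2.40 in control arrays. Itgbl1, the integrin-like secreted protein, read 12.46 and 12.95 in BMP3 arrays and 12.28 and 12.98 in control arrays. Its values followed the replicate number in both groups, and the group difference was 0.08 with a standard error of 0.34. Among the 14 bright members the replicates ran the same way in both groups for 10, and for 9 the mean gap between replicates was larger than the difference between the groups.

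The remaining 16 integrin genes were dim. They comprised all 3 measured collagen-binding alpha subunits (Itga1, Itga2 and Itga10), Itga7, Itga4 and Itga9, the beta subunits Itgb3, Itgb4 and Itgb6, and all 7 measured integrins of leukocytes (Itgal, Itgam, Itgax, Itgae, Itgb2, Itgb7 and Itgb2l). The leukocyte integrins ran from 2.04 to 3.84 over all arrays, beside 9 leukocyte markers that were also dim. Itga10 read 3.87 and 2.71 in BMP3 arrays and 2.68 and 2.72 in control arrays, so its group difference came from BMP3 replicate 1. The smallest unadjusted p among the other 21 dim members of both families was 0.297. A dim probe set leaves the transcript's level unknown and does not show that it is missing.

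**Figure D3:**
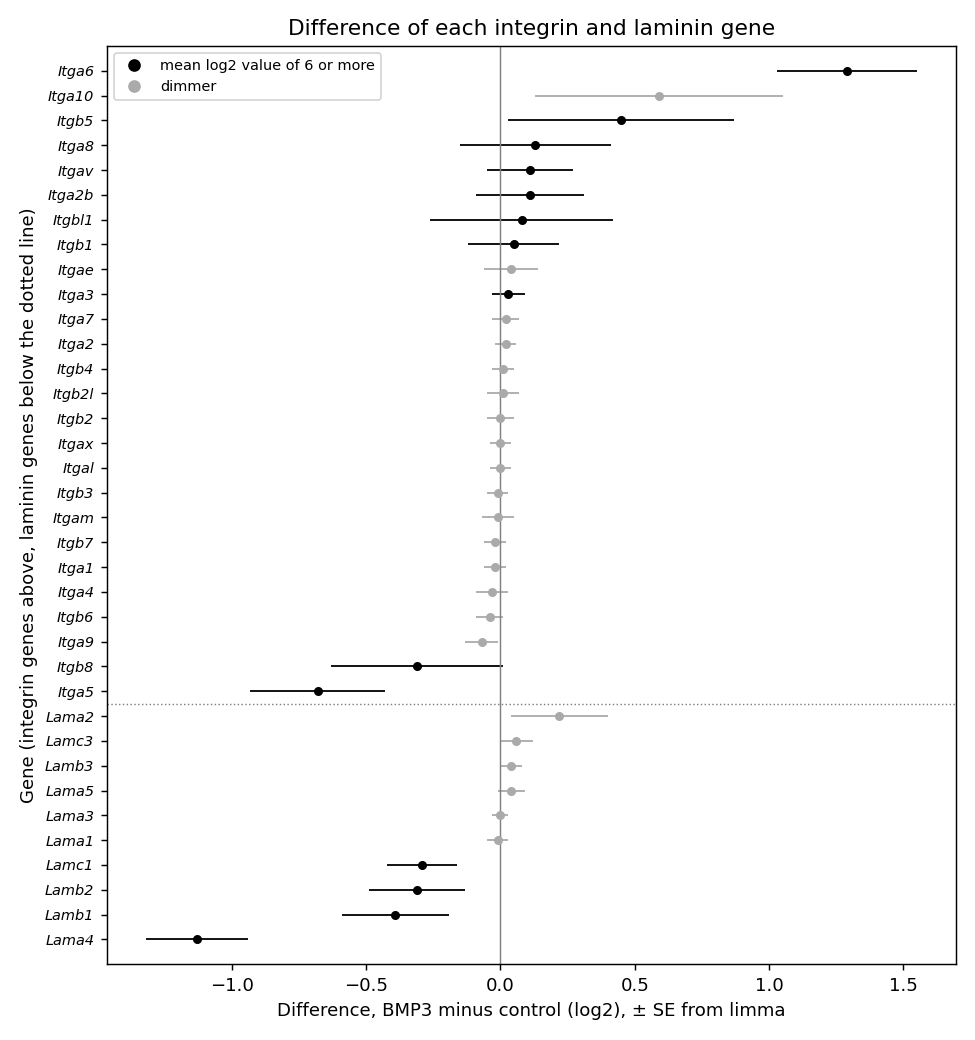
Difference in log2 intensity, BMP3 minus control, with its standard error from limma (horizontal axis) for each of the 26 integrin genes (above the dotted line) and 10 laminin genes (below it), in black where the mean over the 4 arrays was 6 or more and grey otherwise. Itga6 at 1.29 and Lama4 at -1.13 lie furthest from 0, and most grey points lie near 0. Grey points include 18 genes whose group means both lie below every array's median, where a difference says little about the transcript.

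All 4 bright laminin chains had lower values in BMP3 arrays, where 46.7% of bright genes had a difference below 0. In 3 of the 4 both BMP3 values lay below both control values, against 21.7% of bright genes, and the median of the 4 was -0.35. They were the alpha chain Lama4, both beta chains Lamb1 and Lamb2, and the gamma chain Lamc1, which are known to assemble with one another. The 6 dim ones, Lama1, Lama2, Lama3, Lama5, Lamb3 and Lamc3, ran from 2.03 to 5.27 over all arrays. Over all 10 laminin genes the median was 0.00, against -0.01 over all genes.

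Lama4, the alpha chain of laminins around blood vessels, fat and muscle, read 11.02 and 10.57 in BMP3 arrays, against 11.86 and 11.99 in control arrays. Both BMP3 arrays stood below both control arrays. The difference was -1.13 with a standard error of 0.19 (95% interval -1.71 to -0.56, limma adjusted p = 0.344, unadjusted p = 0.00757), which is 2.19-fold higher in control arrays. It ran from -1.35 without BMP3 replicate 1 to -0.91 without BMP3 replicate 2, with an unadjusted p of at most 0.0472 in the 4 fits that left out 1 array. The other probe set of Lama4 was dim, at 2.16 and 2.12 in BMP3 arrays and 2.18 and 4.11 in control arrays, so the result rested on 1 probe set.

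Lamb1, the beta chain of most embryonic and mesenchymal laminins, read 12.60 and 12.12 in BMP3 arrays, against 12.80 and 12.70 in control arrays. The BMP3 values were the lower without overlap, but the difference of -0.39 was within a 95% interval from -1.01 to 0.23 (limma adjusted p = 0.822). Its 3 bright probe sets all had lower means in BMP3 arrays, with differences from -0.89 to -0.22. A dimmer one went the other way, at 4.95 and 4.73 in BMP3 arrays and 4.53 and 3.74 in control arrays, a difference of 0.70 with a standard error of 0.33. Leaving out BMP3 replicate 1 gave -0.63, and leaving out BMP3 replicate 2 gave -0.15. Lamb2, the beta chain of laminins at synapses and in the kidney filter, read 11.28 and 10.94 in BMP3 arrays and 11.57 and 11.28 in control arrays. One BMP3 array and one control array had nearly the same value, and the difference was -0.31 with a 95% interval from -0.87 to 0.24. The value was -0.15 when BMP3 replicate 2 was left out, -0.17 when control replicate 1 was, and -0.48 when BMP3 replicate 1 was.

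Lamc1, the gamma chain found in most laminins, read 9.78 and 9.46 in BMP3 arrays, against 9.89 and 9.94 in control arrays. The BMP3 values were the lower without overlap, by a difference of -0.29 with a 95% interval from -0.70 to 0.11. Leaving out BMP3 replicate 1 gave -0.45, and leaving out BMP3 replicate 2 gave -0.13. The other probe set of Lamc1 was dim, at 2.73 and 2.65 in BMP3 arrays and 2.67 and 3.10 in control arrays, so the result rested on 1 probe set. The chains Lamb1, Lamb2 and Lamc1 had the same sign with every array left out, at sizes that changed with the array left out. For Lamb1 and Lamc1 the sign could not change, as their groups did not overlap. Lama2, the alpha chain of muscle laminins, was dim at 4.84 and 5.27 in BMP3 arrays and 4.81 and 4.86 in control arrays, with BMP3 replicate 2 above the other 3 arrays.

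**Figure D4:**
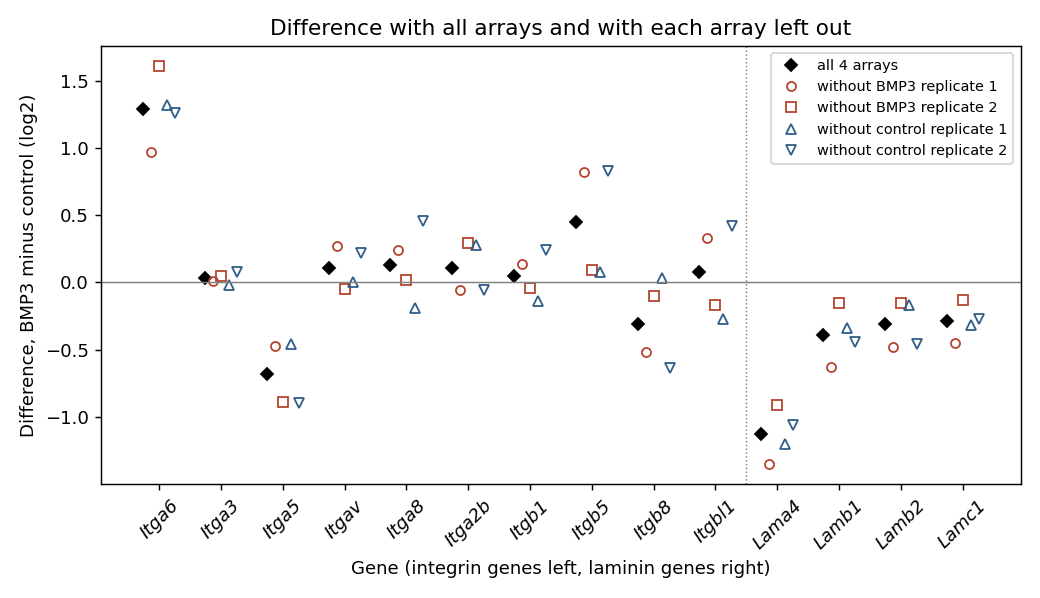
Difference in log2 intensity, BMP3 minus control (vertical axis), for the 14 bright members (horizontal axis) with all 4 arrays and with each array left out in turn. Itga6 stays between 0.97 and 1.61 and Lama4 between -1.35 and -0.91, while Itgav, Itgb1, Itga8, Itga3, Itga2b, Itgb8 and Itgbl1 cross 0.

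The promoters of the beta chains are shown because they are the bright laminin chains, each with a lower mean in BMP3 arrays, whose start region was among the RefSeq sequences used. Itga6, Lama4 and Lamc1 were not among them. Each sequence covers 250 bases before and 50 after the annotated start in GRCm38.p6, at chr12:31265043-31265342 for Lamb1 and chr9:108479612-108479911 for Lamb2, both on the plus strand. Capitals mark GGGCGG, the GC box bound by Sp1 family factors, and CAGAC, the core bound by SMAD proteins, on either strand.
Lamb1: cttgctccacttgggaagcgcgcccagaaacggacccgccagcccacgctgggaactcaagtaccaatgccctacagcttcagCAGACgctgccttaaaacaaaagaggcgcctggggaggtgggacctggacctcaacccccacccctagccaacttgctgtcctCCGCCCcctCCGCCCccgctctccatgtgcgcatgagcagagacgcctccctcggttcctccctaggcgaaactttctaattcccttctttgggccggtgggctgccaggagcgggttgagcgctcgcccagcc
Lamb2: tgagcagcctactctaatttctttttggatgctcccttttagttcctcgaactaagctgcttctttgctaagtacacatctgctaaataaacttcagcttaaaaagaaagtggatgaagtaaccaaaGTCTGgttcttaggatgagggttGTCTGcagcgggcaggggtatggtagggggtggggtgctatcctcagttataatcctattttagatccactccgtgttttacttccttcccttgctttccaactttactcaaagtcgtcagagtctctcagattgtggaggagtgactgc
The Lamb1 stretch held 2 GC boxes and 1 SMAD core, and the Lamb2 stretch 0 GC boxes and 2 SMAD cores, with no match overlapping another. Of 32851 promoters of this length, 35.7% held a GC box and 49.6% a SMAD core. G and C made up 63.7% of the Lamb1 stretch and 44.0% of the Lamb2 stretch. A match is a run of letters, not a bound site.

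Other basement membrane genes went both ways. Of 26 listed components and laminin receptors, 13 were bright, and 2 had higher and 3 lower values at an unadjusted p under 0.05, against 9.87% and 8.33% of bright genes. Counts with 1 array left out are not given, as no share over all genes was taken for those fits. With all 4 arrays, none of the 26 passed limma's adjusted threshold (smallest adjusted p = 0.213). Their median over all 26 was -0.02. Col4a1, a collagen chain of the basement membrane network, read 13.77 and 13.75 in BMP3 arrays, against 13.19 and 13.22 in control arrays, a difference of 0.55 with a standard error of 0.04. The second brightest probe set of Col4a1 had 0.19, with an unadjusted p of 0.107. Its partner chain Col4a2 read 12.00 and 12.01 in BMP3 arrays and 11.67 and 11.63 in control arrays. The Col4a2 difference was 0.35 with a standard error of 0.04, and there was no second probe set to compare. Col4a1 and Col4a2 were thus higher in both BMP3 arrays, opposite in sign to the bright laminin chains. Col4a5, the other bright chain of collagen IV, was lower, at 12.13 and 11.37 in BMP3 arrays and 12.46 and 12.19 in control arrays. Its difference was -0.58 with a standard error of 0.32. Of the 13 bright genes listed, 6 had a difference above 0 and 7 below.

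Nid2, a nidogen that links laminin to collagen IV, read 12.52 and 11.87 in BMP3 arrays, against 13.01 and 13.06 in control arrays. Its difference was -0.85 with a standard error of 0.26, and it had no second probe set to compare. Leaving out BMP3 replicate 1 gave -1.17 and leaving out BMP3 replicate 2 gave -0.52, and without either control array its unadjusted p was above 0.05. The other nidogen gene, Nid1, read 14.62 and 14.11 in BMP3 arrays, against 15.03 and 14.79 in control arrays (difference -0.55 with a standard error of 0.22). Sgcb, a subunit of the sarcoglycan complex that accompanies the laminin receptor dystroglycan, had a difference of -0.66 with a standard error of 0.17. Megf9, a membrane protein with laminin-like EGF repeats, had -0.89 with a standard error of 0.10. Both were lower in both BMP3 arrays, but these values rested on the brightest probe set. The second brightest had -0.15 for Sgcb (unadjusted p = 0.355) and -0.05 for Megf9 (unadjusted p = 0.312).

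**Figure D5:**
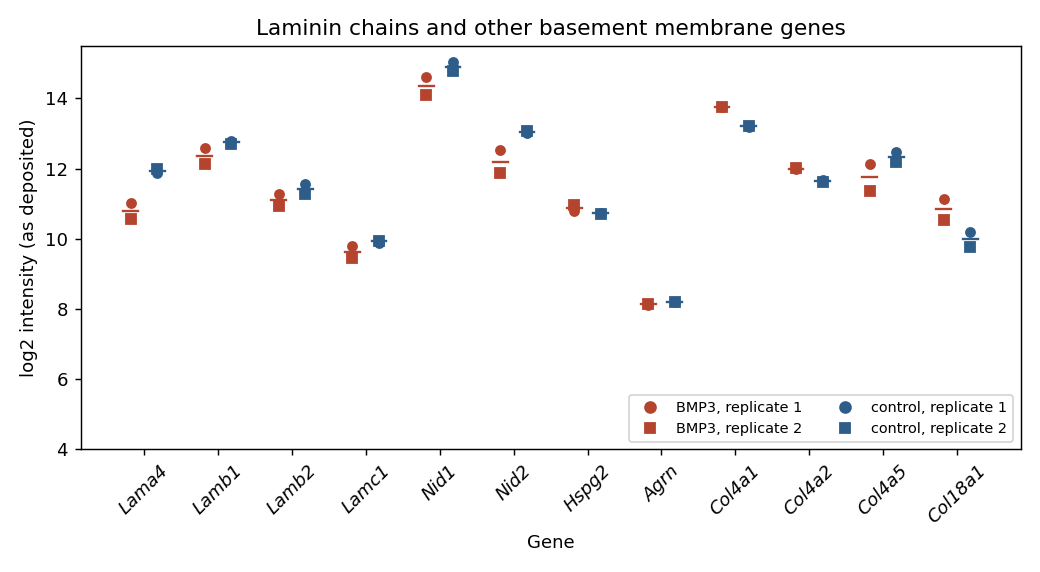
Log2 intensity on each array (vertical axis) of the 4 bright laminin chains and the bright nidogen, heparan sulphate proteoglycan and collagen genes of the basement membrane (horizontal axis), with BMP3 left of control and a line at the mean of 2 arrays. Lama4, Nid1, Nid2 and Col4a5 are among those lower, and Col4a1, Col4a2 and Col18a1 among those higher, in both BMP3 arrays.

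Among 31 measured ligands of integrins other than laminins, 22 were bright, with 2 higher and 2 lower at an unadjusted p under 0.05, against 9.87% and 8.33% of bright genes, and a median of 0.00 over the 31. For this list too, counts with 1 array left out are not given. Tnc, which encodes tenascin-C, a ligand of several integrins, read 11.21 and 11.40 in BMP3 arrays, against 9.45 and 9.96 in control arrays, a difference of 1.60 with a standard error of 0.22. Its second brightest probe set had 1.23, with an unadjusted p of 0.189. Fn1, which encodes fibronectin, the ligand of Itga5 with Itgb1, had 0.25 with a standard error of 0.04, but its second brightest probe set had -0.14. Npnt, which encodes nephronectin, the ligand of Itga8 with Itgb1, read 11.09 and 11.01 in BMP3 arrays, against 11.62 and 11.37 in control arrays, a difference of -0.45. The second brightest probe set of Npnt had -0.12 (unadjusted p = 0.603), and the mean of all its probe sets -0.07. Svep1, a large matrix protein that binds integrins, had -0.55 with a standard error of 0.03, and no second probe set to compare. The lowest difference among the 31 was -1.36 for Thbs2, with a standard error of 0.82 and groups that overlapped.

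Inside the cell, 35 measured linkers and signalling partners of integrins included 31 bright genes, 2 of them higher and 2 lower at an unadjusted p under 0.05, against 9.87% and 8.33% of bright genes, with a median of 0.09 over the 35. Counts with 1 array left out are again not given, for want of a share over all genes. Zyx, which encodes the focal adhesion protein zyxin, read 13.88 and 13.87 in BMP3 arrays, against 13.56 and 13.52 in control arrays, a difference of 0.34 with a standard error of 0.04, while its second brightest probe set had 0.19 (unadjusted p = 0.0678). Tln1, which encodes the talin that activates integrins by binding their beta tails, had 0.29 with a standard error of 0.08, and its second brightest probe set had -0.08. Its relative Tln2 had -0.20 with a standard error of 0.06, and -0.35 by its second brightest probe set. Itgb1bp1, an inhibitor that competes for the tail of Itgb1, had -0.28 with a standard error of 0.08, and no second probe set to compare. Of the 13 genes named from these lists, 7 kept an unadjusted p under 0.05 for the brightest probe set with each array left out (Zyx, Col4a1, Col4a2, Megf9, Fn1, Tnc and Svep1), and Tln1, Tln2, Itgb1bp1, Nid2, Sgcb and Npnt did not. These 13 were picked for a small unadjusted p in the same arrays, so keeping it with an array left out is no separate support. The share of bright genes that keep it was not taken. None of the 35 passed the adjusted threshold (smallest adjusted p = 0.271), and the differences named above for linkers were under 1.5-fold. The largest among bright linkers had an unadjusted p above 0.05: 0.71 for Actn4, 0.67 for Parvb, 0.60 for Tns1 and -0.58 for Itgb3bp. Of the 31 bright genes, 20 had a difference above 0 and 11 below.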

How the data were processed

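Biotin-labelled RNA of 2 BMP3 and 2 control cultures was hybridised to Affymetrix 3' arrays, per the labels' protocols. The authors deposited 1 value per probe set and array, read here as log2 intensity from its range; neither the scale nor the normalization, background correction and probe set summary is given in the sources used here. The only tool in the submitters' processing notes is Partek, with no step given. After 64 control probe sets were left out, 45037 entered limma 3.58.1 under R 4.3.3 (two-sided, no covariate, 2 residual and 1.18 prior degrees of freedom), and p-values were adjusted over all of them by Benjamini-Hochberg. Of these, 34945 carry 1 gene symbol, 932 several and 9160 none listed, and only the first were used for genes. The 36 members have 77 probe sets, and all 36 symbols matched by Entrez identifier. Where both group means of a gene's brightest probe set lay below every array's median, the text leaves out its own difference, and the plot of differences draws it in grey. The fit was tested on simulated data. The noise there was independent between arrays, so that test does not cover the shared deviations of same-numbered arrays given below.

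Bright members are all named, as are dim partners of a described subunit and, from each partner list, up to 5 bright genes of smallest unadjusted p under 0.05. The members, lists and motifs were chosen with earlier results of these data known. Alternatives were the replicate block, each array left out, 3 scalings, 2 filters, other priors, an ordinary linear model, an offset of 16, other probe sets and a fold of 1.25.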

Additional observations from a re-analysis of the deposited data

How the results depend on the processing

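Itga6, Itgb5, Lama4, Lamb1, Lamb2 and Lamc1 kept their direction in all 16 alternatives. The replicate block, the 2 filters, the other priors and the ordinary linear model leave a gene's difference as it was, so they could not turn it. Nor could other probe sets for Lamb2, which has 1, or leaving out 1 array where the groups did not overlap. None of the 14 bright members passed the adjusted threshold in any alternative (smallest limma adjusted p = 0.151, for Itgb5 with the replicate block). With 1 array left out, the median difference ran from -0.03 to 0.02 for integrin and from -0.02 to 0.01 for laminin members. For bright members it ran from -0.15 to 0.01, so the signs of these medians are not settled. The next counts are of members past the looser threshold. The share of all genes past it in the same fits was not taken, so they do not set the members apart. The count of higher members was 0 with an ordinary linear model. Itga5 joined Lama4 as the second lower gene with an intensity trend and over bright probe sets only. With the mean of all probe sets or the second brightest 0 members were lower, with Lama4 at -1.07 (unadjusted p = 0.0741) and -1.01 (unadjusted p = 0.276). The integrin median was 0.09 and the laminin median -0.35 over bright probe sets, 0.06 and -0.30 over the brighter ranks. The laminin median was 0.03 with median centring, -0.02 with the mean of all probe sets and -0.03 with the second brightest. Directions turned for Itga5 (0.01 with the mean of all probe sets, 0.03 with the second brightest), Itgb1 (-0.10 and -0.13), Itga8 (-0.01 with the second brightest), Tln1 (-0.08) and Fn1 (-0.14). With 1 array left out, the ranges were -0.06 to 0.29 for Itga2b, -0.05 to 0.27 for Itgav, -0.14 to 0.24 for Itgb1, -0.27 to 0.42 for Itgbl1, -0.02 to 0.08 for Itga3, -0.19 to 0.46 for Itga8 and -0.64 to 0.03 for Itgb8. Deviations of same-numbered arrays from their group means correlated at 0.596 over 17152 bright probe sets, but 2 pairs do not show that the numbers pair the cultures. With the replicate block 0 probe sets passed the adjusted threshold and 683 were higher and 1481 lower by the looser one, against 364 and 901, while among members 1 was higher and 1 lower as before. The median of all probe sets was -0.017 as deposited, 0.000 after quantile normalization, 0.022 after median centring and -0.001 after cyclic loess. The cause of these changes was not tested. Only 4 arrays limit the precision.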
